A study of Mus musculus with 31 samples.

Results

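The genes described here are 10 genes of the circadian clock and its outputs, namely Arntl, Clock, Cry1, Per1, Per2, Per3, Nr1d1, Nr1d2, Dbp and Tef. They were chosen by symbol, as all probe sets that the platform annotation assigns to these genes, and make up 10 of 18194 named genes and 25 of 45101 probe sets on the array. The series set out to compare natural and induced regulatory T cells (Treg) with conventional T cells and to find what the transcription factor Foxp3 adds, and it holds 31 Affymetrix mouse arrays in 10 label groups, 1 array per sample. All groups are labelled as CD4+ T cells from spleen and lymph nodes, sorted by a green fluorescent reporter (EGFP) joined to Foxp3. The reporter is either the bicistronic Foxp3/EGFP allele, which leaves Foxp3 intact, or the Foxp3deltaEGFP allele, a mutant Foxp3.

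Cells of Foxp3/EGFP mice were conventional T (EGFP-, not activated, 3 arrays), natural Treg (EGFP+, not activated, 4), activated T (EGFP- cells given anti-CD3 and anti-CD28 antibodies without TGF-beta, 4) and activated natural Treg (EGFP+ cells given both antibodies with TGF-beta, 3). EGFP- cells of the same strain given both antibodies with TGF-beta for 3 days were sorted into induced Treg (EGFP+, 5 arrays) and failed induced Treg (EGFP-, 3). Cells with the mutant allele were natural Foxp3-delta (EGFP+, not activated, from heterozygous females, 2 arrays) and induced Foxp3-delta (from mutant mice, induced as above and sorted for EGFP, 3). Induced Treg and induced Foxp3-delta cells were also kept for 1 further week in interleukin 2 (IL-2) at 100 units per ml, with 2 arrays each. Anti-CD3 and anti-CD28 stand in for antigen and co-stimulation, and TGF-beta is the cytokine that induces Foxp3 in culture. The labels give no time of day of collection. They number the samples of a group without saying whether these are different mice or cultures, and the p-values reflect the spread among arrays, which may be technical.

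The circadian clock is a transcriptional loop found in most mammalian cells. The proteins of Arntl (also called Bmal1) and Clock pair and bind E-boxes in the promoters of the Per and Cry genes, whose proteins in turn hold the pair back. The nuclear receptors encoded by Nr1d1 and Nr1d2 (REV-ERB alpha and beta) repress Arntl, so that in a rhythmic tissue Arntl transcripts peak at about the opposite phase to those of Dbp, Per1, Per2 and Per3. Dbp and Tef encode PAR-bZIP factors that carry the rhythm to output genes through D-boxes, elements that the Per promoters also hold. Samples of 1 tissue collected at different phases would therefore show Arntl against Dbp and the Per genes, and this relation was examined across the arrays.

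Promoter sequences from RefSeq (build GRCm38.p6) were found for 9 of the 10 genes, as 14 windows of 250 bases upstream of an annotated gene start. The E-box CACGTG, whose letters are the same on both strands, was present in windows of 3 genes (Per1, Cry1 and Tef) and in 6.02% of all 32851 windows of this length. The D-box, searched as TTATGNAA on both strands, was present in 2 genes (Per1 and Per3) and in 3.07% of all windows. Neither form of the REV-ERB element searched (TAGGTCA, in 2.23% of all windows, and TGGGTCA, in 3.24%) nor the cyclic AMP element TGACGTCA (1.55%) was found in a window of these genes, on either strand. Matches lay in 5 of the 14 windows, and 4 of these are shown, 1 per gene, because they hold the elements through which the loop is known to act. The one not printed is a second Tef window (chr15:81811164-81811413), with an E-box at -138. Capitals mark the matches, which lay apart from each other, and a match is a description of the letters and not a mapped binding site.
Per1 (chr11:69098699-69098948, plus strand; E-box starting at -166 and D-box at -24 from the gene start): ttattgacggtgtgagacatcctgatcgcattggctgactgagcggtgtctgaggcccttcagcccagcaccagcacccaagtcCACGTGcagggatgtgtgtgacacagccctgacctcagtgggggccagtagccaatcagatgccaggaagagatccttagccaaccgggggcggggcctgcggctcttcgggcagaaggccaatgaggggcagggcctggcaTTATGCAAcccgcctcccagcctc
Cry1 (chr10:85185055-85185304, minus strand; E-box at -60): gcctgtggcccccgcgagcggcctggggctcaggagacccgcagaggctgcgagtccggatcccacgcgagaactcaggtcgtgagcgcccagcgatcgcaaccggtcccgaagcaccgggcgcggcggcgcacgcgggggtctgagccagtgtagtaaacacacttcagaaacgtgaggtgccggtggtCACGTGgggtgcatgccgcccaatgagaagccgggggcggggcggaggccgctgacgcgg
Tef (chr15:81802423-81802672, plus strand; E-box at -127): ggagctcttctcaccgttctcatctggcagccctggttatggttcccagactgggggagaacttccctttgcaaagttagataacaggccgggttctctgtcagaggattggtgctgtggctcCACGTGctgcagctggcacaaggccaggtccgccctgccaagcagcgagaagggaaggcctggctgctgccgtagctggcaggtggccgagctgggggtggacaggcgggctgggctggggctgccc
Per3 (chr4:151044666-151044915, minus strand; D-boxes at -205 and -158): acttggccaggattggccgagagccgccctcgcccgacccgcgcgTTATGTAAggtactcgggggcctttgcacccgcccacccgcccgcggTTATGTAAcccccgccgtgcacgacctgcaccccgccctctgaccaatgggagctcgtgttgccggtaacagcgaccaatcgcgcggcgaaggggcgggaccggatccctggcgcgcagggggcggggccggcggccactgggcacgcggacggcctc

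Before the clock genes are read as T cell genes, the labels have to be set beside the arrays. Foxp3, the gene on which the cells were sorted, lay between 9.59 and 16.85 intensity units, under the table's median of 39.82 on each of the 31 arrays, with a mean of 13.58 ± 2.30 (SD, n = 4) for natural Treg and 13.13 ± 0.88 (n = 3) for conventional T. Of 9 T cell markers, 7 were measured, and their median stood at the 24.5th percentile of an array's probe sets (18.2 to 29.2 over the arrays). The median of myelin markers stood at the 100.0th percentile (4 of 5 measured), of neuron markers at the 99.3th, of astrocyte markers at the 99.2th and of microglia markers at the 72.8th (5 of 5 measured in each). The labelled cell type was therefore not borne out by its defining markers, and "the arrays labelled" a cell type is meant wherever a group is named.

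The arrays also fall into 3 sets by hybridisation controls and overall intensity, measures that use none of the clock genes. Set 1 holds 15 arrays, set 2 holds 6 and set 3 holds 10. The deposited median intensity ran from 37.0 to 47.7 in set 1, from 40.8 to 55.4 in set 2 and from 22.2 to 37.4 in set 3. All conventional T, natural Treg and IL-2 arrays are in set 1, and all activated T and activated natural Treg arrays are in sets 2 and 3, so that activation and array set cannot be told apart. All natural Foxp3-delta and induced Foxp3-delta arrays are also in sets 2 and 3. Array set can therefore not be told apart from the label in natural Treg minus natural Foxp3-delta or in IL-2 induced Foxp3-delta minus induced Foxp3-delta. In all these comparisons a block for array set rests on set differences seen in other groups. Of all 12170 genes tested, 52.8% differed among the array sets (limma moderated F, Benjamini-Hochberg adjusted p under 0.05), and of the 10 clock genes 5 did so. These were Cry1 (adjusted p = 3.32e-07, limma), Clock (3.57e-06), Dbp (3.25e-05), Nr1d2 (0.00308) and Tef (0.00501).

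All 10 genes were measured above the table's median on all 31 arrays through their brightest probe set, which stands for the gene below. Values are quantile normalised intensities on a linear scale, and differences and tests are on log2(intensity + 16), which understates the change of dim genes. Between the highest and the lowest of the 31 arrays the genes spanned from 1.42-fold (Nr1d2) to 2.65-fold (Nr1d1). The median SD of the 10 genes over the arrays was 0.17 on the log2 scale, beside 0.16 over all genes tested. Nr1d1 (SD 0.32) and Clock (0.25) varied most, and Dbp (0.13) and Nr1d2 (0.14) least. The 31 values of each gene are drawn by label group in the plot of clock gene levels.

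**Figure D1:**
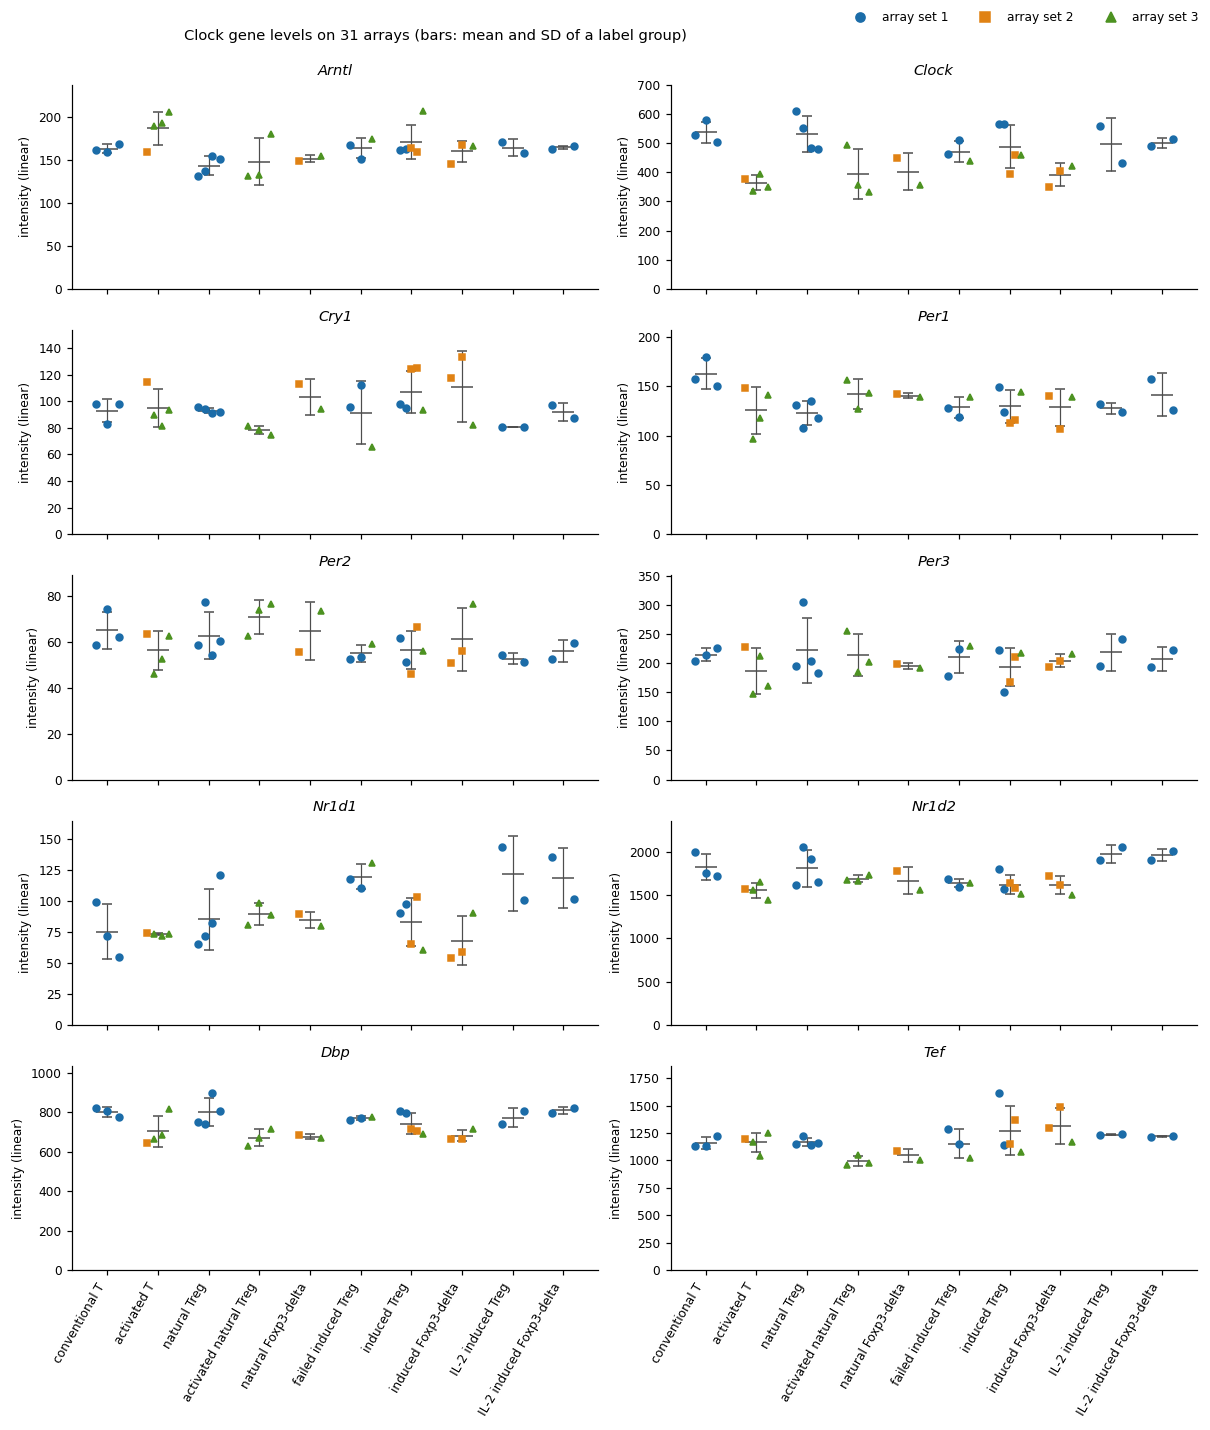
Intensity of the 10 clock genes (quantile normalised, linear scale from 0, one panel per gene) on 31 arrays by label group; each point is 1 array, its colour and shape give the array set, and bars are the mean and SD of the group. Clock ran from 430.4 to 609.9 on the 15 arrays of set 1 and from 333 to 494 on the 10 of set 3, and the 6 Cry1 values of set 2 lie above all other arrays.

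A moderated F test over the 10 label groups called 2 of the 10 clock genes at an adjusted p under 0.05, beside 13.6% of all genes tested. These were Clock (adjusted p = 0.0223, limma) and Nr1d2 (0.0461). Nr1d1 (0.0513) and Dbp (0.0673) came next, followed by Arntl (0.157), Tef (0.187), Cry1 (0.297), Per1 (0.348), Per2 (0.452) and Per3 (0.905). With array set as a block in the limma fit, 0 of the 10 were called, beside 1.27% of all genes, and the adjusted p was 0.832 for Clock and 0.44 for Nr1d2.

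Arntl, the activator whose transcript cycles in most tissues, ran from 131 to 207 with a median of 162 over the 31 arrays. Its label group means were lowest in natural Treg (143 ± 11.1, SD, n = 4) and activated natural Treg (148 ± 27.3, n = 3), and highest in activated T (187 ± 19.5, n = 4) and induced Treg (171 ± 20.2, n = 5). The other 6 means lay between 152 and 165, a span smaller than the SD of activated T. The 4 activated T arrays read 159.8, 189, 193 and 206, the 3 conventional T arrays 162, 159 and 169. The log2 difference of 0.17 between these groups was not called (limma adjusted p = 0.277), and the activated T array that overlaps the conventional ones is the 1 from array set 2.

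Clock, the DNA-binding partner of Arntl, read 528, 578 and 505 on the 3 arrays labelled conventional T and 377, 336, 396 and 350.4 on the 4 labelled activated T. Every activated array lay below every conventional one, as was the case in one direction or the other for 22.7% of all genes. In regulatory T cells it read 609.9, 553, 484 and 478 on the 4 natural Treg arrays and 494, 355 and 333 on the 3 activated natural Treg arrays. Here 1 activated array (494) lies inside the range of the unactivated ones.

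Clock fell with activation under both labels. The difference of activated T minus conventional T was -0.54 on the log2 scale (SE 0.13, 95% interval -0.81 to -0.27, limma adjusted p = 0.0185), and Clock was the 1 clock gene of 10 called in this comparison, beside 6.75% of all genes. The difference of activated natural Treg minus natural Treg was -0.43 (SE 0.13, interval -0.70 to -0.16, limma adjusted p = 0.0262). With Dbp, 2 of 10 clock genes were called in that comparison, beside 16.7% of all genes. With array set as a block 0 clock genes were called in either comparison by limma, beside 0.0986% and 0.362% of all genes. The Clock differences were then -0.26 (limma adjusted p = 0.659) and -0.15 (limma adjusted p = 0.766). With arrays scaled to a common median the Clock differences were -0.31 in both (limma adjusted p = 0.0537 and 0.0608). The median gene moved by 0.17 and 0.09 under that scaling, and relative to it Clock differed by -0.48 and -0.40. Both calls also rest on single arrays. The first was lost (limma adjusted p from 0.0522 to 0.0871) without activated T replicate 2, conventional T replicate 1 or conventional T replicate 2. The second was lost (limma adjusted p from 0.0595 to 0.128) without activated natural Treg replicate 2 or 3 or natural Treg replicate 1 or 2.

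Within the 2 label groups with arrays in set 1 and in another set, Clock was highest on the arrays of set 1. In failed induced Treg it read 465 and 510 on the 2 arrays of set 1 and 439 on the 1 of set 3. Induced Treg is the group with arrays in all 3 sets, and Clock read 564 and 567 on its 2 arrays of set 1, 393 and 459.7 on its 2 of set 2 and 459 on its 1 of set 3. Over all arrays Clock averaged 522 ± 49.1 (SD, n = 15) in set 1, 405 ± 42.3 (n = 6) in set 2 and 394 ± 56.6 (n = 10) in set 3. Summed marker levels also differed between the groups. Those of the T cell list, whose median marker lies under the table's median, ran from 106.1 to 109.3 units on conventional T arrays against 134.7 to 161.3 on activated T arrays, and from 103.3 to 116.3 on natural Treg arrays against 121.4 to 158.3 on activated natural Treg arrays. The astrocyte sum ran from 33733.6 to 37689.4 on conventional T arrays and from 38833.7 to 42954.8 on activated T arrays, without overlap, and the myelin sum from 52328.7 to 54916.3 and from 49834.0 to 52405.6. In the regulatory T cell comparison the astrocyte sum (35106.3 to 40585.0 against 36975.8 to 41902.7) and the myelin sum (51244.4 to 52918.6 against 49290.2 to 52719.9) overlapped, and the neuron and microglia sums overlapped in both comparisons. The part of array set or of these markers in the Clock difference was not tested apart from the block. In these bulk samples fewer cells of a type and less RNA per cell cannot be told apart.

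**Figure D2:**
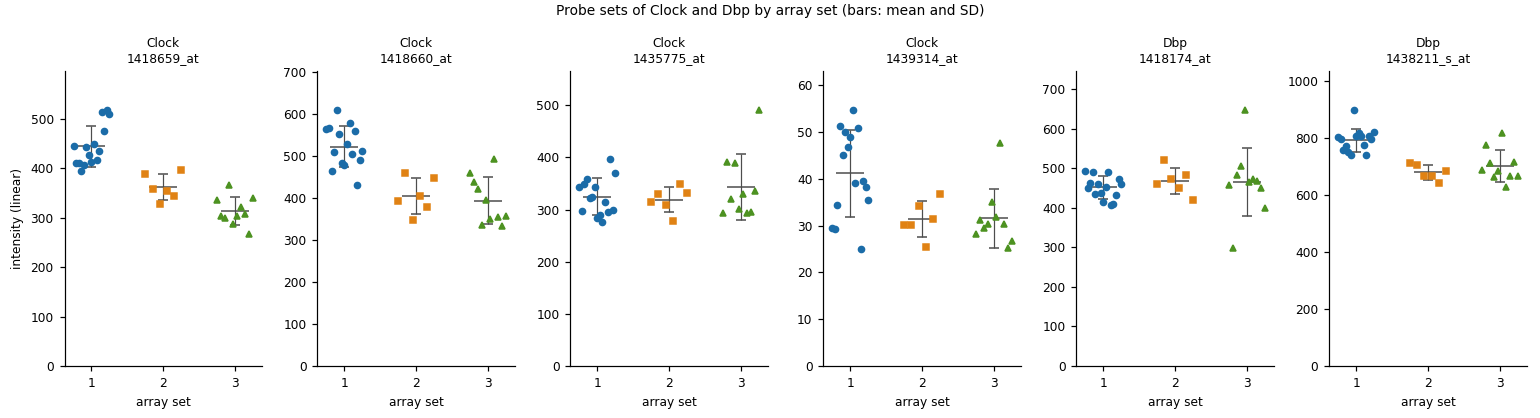
Intensity (quantile normalised, linear scale from 0) of the 4 probe sets of Clock and the 2 of Dbp by array set; points are arrays (15, 6 and 10 in sets 1 to 3) and bars are the mean and SD. Of the Clock probe sets, 1435775_at averages 324, 319 and 344 in the 3 sets, while the other 3 are highest in set 1.

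The 4 probe sets of Clock did not move together. 3 of them were lower on the activated arrays. Probe set 1418659_at differed by -0.41 (limma adjusted p over probe sets = 0.0199) in conventional T cells and -0.48 (0.00395) in regulatory T cells, where 6.43% and 15.8% of all probe sets were called, and the dim 1439314_at by -0.41 (0.0539) and -0.36 (0.053). Probe set 1435775_at differed by 0.21 (limma adjusted p = 0.267) and -0.04 (0.833). The log2 levels of 1418660_at, the brightest, correlated over the 31 arrays at 0.69 with 1418659_at, 0.485 with 1439314_at and -0.31 with 1435775_at. In the F test over label groups, 3 of the 20 tested probe sets of clock genes were called, all of Clock (limma adjusted p = 0.000929, 0.0229 and 0.0282), beside 12.8% of the 21559 probe sets tested.

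Disagreement between probe sets was the rule in this table. Over the 5646 genes with at least 2 tested probe sets, the correlation of the 2 brightest had a median of 0.007 across the arrays, with quartiles of -0.20 and 0.21, and was below 0 for 49% of genes. It was 0.69 for Clock, 0.61 for Nr1d2, -0.12 for Per3, -0.23 for Dbp and -0.30 for Tef. Clock and Nr1d2 lie above the upper quartile, Per3 between the quartiles, and Dbp and Tef below the lower one.

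Of the repressors, Per1, an early-responding clock gene that also answers to light and hormones, showed its highest label group mean in conventional T (162 ± 15.7, SD, n = 3) and its lowest in natural Treg (123 ± 12.1, n = 4). The 3 conventional T arrays read 157, 180.1 and 149.9. The 4 natural Treg arrays read 130.4, 108, 135 and 118, with no overlap between the groups (6.72% of all genes), and both groups are wholly in array set 1. The difference of -0.36 (SE 0.12, interval -0.61 to -0.12) had an unadjusted limma p of 0.00555 and an adjusted p of 1.0. Across all genes 0.00822% were called in this comparison and 2.65% had an unadjusted p under 0.05, and 0 of the 10 clock genes were called by limma, Per1 being the 1 with an unadjusted p under 0.05.

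Per1 was also the clock gene for which the 2 activation differences lay farthest apart. It differed by -0.35 (limma adjusted p = 0.0757) between activated T and conventional T, and the 3 activated natural Treg arrays, at 156, 127 and 143, overlapped the natural ones. The difference between the 2 activation effects was 0.53 (SE 0.17, interval 0.18 to 0.88), with a limma adjusted p of 0.434. It had an unadjusted p under 0.05, as the 1 clock gene of 10. In that interaction limma called 0 clock genes and 0% of all genes and 7.62% had an unadjusted p under 0.05. TGF-beta was given in one activation and not in the other, per the labels, so cell type and TGF-beta cannot be told apart in it.

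Per2 and Per3, the other period repressors, stayed close to their spread. Per2 was highest in activated natural Treg (71.0 ± 7.37, SD, n = 3) and lowest in IL-2 induced Treg (52.8 ± 2.30, n = 2), and its 31 values ran from 46.2 to 77.5 with a median of 58.8. Per3 ran from 146 to 305 with a median of 203. Its highest value was 1 natural Treg array whose 3 companions read 195, 204 and 183, and its group means ran from 186 ± 39.2 (activated T, n = 4) to 222 ± 55.9 (natural Treg, n = 4). Neighbouring groups overlapped in both genes.

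Cry1, which encodes the cryptochrome repressor of the Arntl and Clock pair, averaged 111 ± 26.5 (SD, n = 3) in induced Foxp3-delta, the highest group, and 78.4 ± 3.36 (n = 3) in activated natural Treg, the lowest. The 3 induced Foxp3-delta arrays read 118, 134 and 81.9, the first 2 from array set 2 and the last from set 3. The 5 induced Treg arrays read 98.1, 95.3, 124, 125 and 93.5, and the pair of high values are again those of set 2. The 6 arrays of set 2, from 4 label groups, ran from 113 to 134, and the other 25 arrays from 65.9 to 112.5. This separation was noticed after the values were seen, and 0.279% of all genes tested (34) had all 6 of these arrays above all others. Cry1 was called in 0 of the 9 comparisons of label groups by limma. Its lowest unadjusted p was 0.0303, for a difference of -0.34 (adjusted p = 0.235) between IL-2 induced Treg and induced Treg.

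Nr1d1, the REV-ERB alpha repressor of Arntl, was the most variable of the 10 genes, from 54.2 to 144. It averaged 122 ± 30.2 (SD, n = 2) in IL-2 induced Treg, 120 ± 10.0 (n = 3) in failed induced Treg and 119 ± 24.2 (n = 2) in IL-2 induced Foxp3-delta. The other 7 group means lay between 67.9 and 89.5. The 2 IL-2 arrays of each kind read 144 and 101, and 136 and 102, and the 3 induced Foxp3-delta arrays 54.2, 58.9 and 90.7. The difference of IL-2 induced Foxp3-delta minus induced Foxp3-delta was 0.70 (SE 0.22, interval 0.25 to 1.14, limma adjusted p = 0.111), with no overlap, as for 39.3% of all genes. In induced Treg the same culture gave 0.48 (SE 0.20, limma adjusted p = 0.206), with overlap. Failed induced Treg read 118, 111 and 130.5, above the 5 induced Treg arrays at 90.6, 97.3, 65.1, 103 and 60.4, a separation seen for 2.53% of all genes. Induced minus failed was -0.47 (SE 0.17, limma adjusted p = 0.998).

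Nr1d2, which encodes REV-ERB beta, was highest on the 4 IL-2 arrays, among those of induced cells. IL-2 induced Treg read 1907 and 2055 and IL-2 induced Foxp3-delta 1911 and 2010, above all 5 induced Treg arrays (1513 to 1797) and all 3 induced Foxp3-delta arrays (1508 to 1723). Groups without overlap were found for 24.4% and 39.3% of all genes in these comparisons. Conventional T reached 2002 and natural Treg 2054 on 1 array each. The IL-2 differences were 0.29 (SE 0.09, interval 0.11 to 0.47, limma adjusted p = 0.0806) and 0.28 (SE 0.10, interval 0.08 to 0.48, limma adjusted p = 0.141). Neither was called. By limma 0 of the 10 clock genes were called in either IL-2 comparison, beside 2.15% and 0.304% of all genes, and 3 and 4 had an unadjusted p under 0.05, beside 17.1% and 16.5%. The test of the difference between the 2 IL-2 effects called 0 clock genes by limma, beside 0% of all genes, with 0 clock genes and 2.87% of all genes at an unadjusted p under 0.05. With array set as a block the differences were 0.27 (limma adjusted p = 0.15) and 0.24 (limma adjusted p = 0.628). The groups of the second comparison share no array set, so its block value rests on set differences in other groups. Nr1d2 averaged 1558 ± 84.1 (n = 4) in activated T, its lowest group, and the difference from conventional T was -0.23 (limma adjusted p = 0.0813).

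Dbp, the output factor with the widest daily swing in many tissues, ran from 629 to 899 with a median of 742 over the arrays. It read 752, 742, 899 and 807 on the 4 natural Treg arrays and 629, 668 and 715 on the 3 activated natural Treg arrays, with no overlap, which held for 30% of all genes. The difference was -0.25 (SE 0.08, interval -0.41 to -0.09, limma adjusted p = 0.0308), so that Dbp fell under this label. Its call was lost (limma adjusted p from 0.0608 to 0.135) without activated natural Treg replicate 1 or 2 or natural Treg replicate 3 or 4. With array set as a block the difference was -0.17 (limma adjusted p = 0.53), and with arrays scaled to a common median it was -0.04 (0.791). The median gene moved by 0.09 under that scaling, and relative to it Dbp differed by -0.13. The second Dbp probe set, 1418174_at, differed by 0.08 (SE 0.11, limma adjusted p = 0.666) in the same comparison. On the arrays labelled conventional T Dbp read 819.9, 807 and 775 against 644, 663, 685 and 818 on those labelled activated T, with 1 activated array inside the conventional range (difference -0.19, limma adjusted p = 0.127).

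Like Clock, Dbp was highest on the arrays of set 1 inside the induced Treg group, at 804 and 797 on the 2 arrays of set 1, 713 and 704 on the 2 of set 2 and 689.9 on the 1 of set 3. In failed induced Treg Dbp read 759 and 771 on the 2 arrays of set 1 and 777 on the 1 of set 3, and so did not follow that order. It averaged 793 ± 40.3 (SD, n = 15), 679.9 ± 26.1 (n = 6) and 703 ± 56.6 (n = 10) in sets 1, 2 and 3. Tef, its relative, ran from 958 to 1619. It averaged 996 ± 47.6 (n = 3) in activated natural Treg, the lowest group, and 1316 ± 162 (n = 3) in induced Foxp3-delta, the highest, and the 3 activated natural Treg arrays (958, 1049 and 981) lay below all 4 natural Treg arrays (1143 to 1225). Groups without overlap were found for 30% of all genes in this comparison. The Tef difference was -0.23 (SE 0.10, interval -0.44 to -0.01, limma adjusted p = 0.133). With array set as a block it was 0.05 (limma adjusted p = 0.919).

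**Figure D3:**
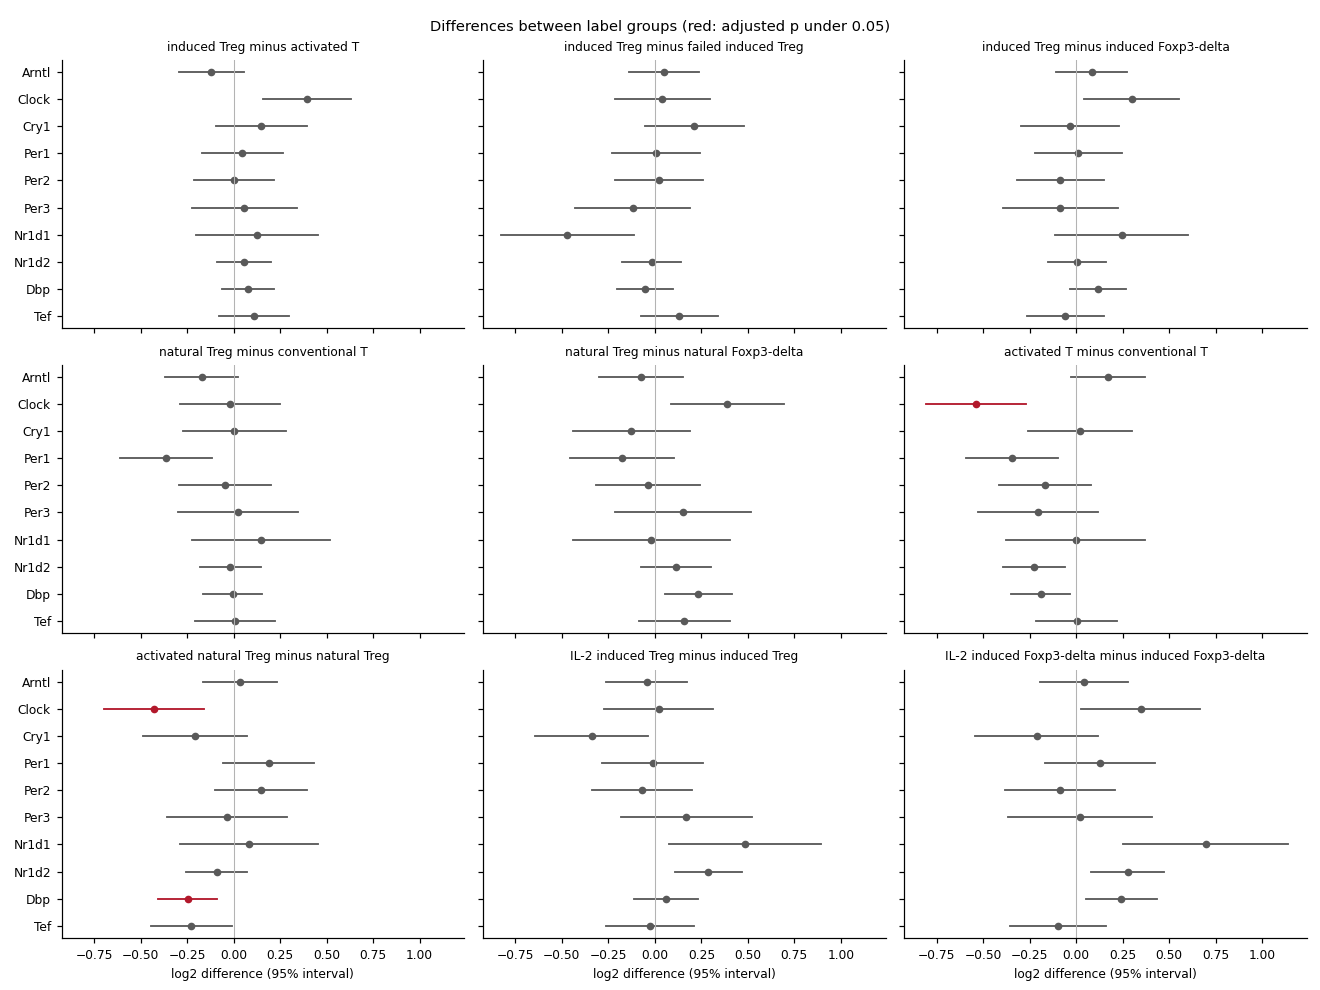
Log2 differences (x axis, with 95% intervals from limma) of the 10 clock genes in the 9 comparisons of label groups, one panel per comparison; red marks an adjusted p under 0.05 over all 12170 genes. Red points appear in the 2 activation panels, for Clock in both (-0.54 and -0.43) and for Dbp in regulatory T cells (-0.25).

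None of the remaining comparisons called a clock gene. In induced Treg minus activated T, 0 of 10 were called by limma beside 0.0493% of all genes. Clock differed by 0.40 (limma adjusted p = 0.281) as the 1 clock gene with an unadjusted p under 0.05, beside 11% of all genes. In induced Treg minus failed induced Treg and in induced Treg minus induced Foxp3-delta, 0 of 10 were called beside 0% of all genes. At an unadjusted p under 0.05 there was 1 clock gene in each, Nr1d1 (above) and Clock (0.30), beside 4.21% and 2.81% of all genes. In natural Treg minus natural Foxp3-delta, 0 of 10 were called beside 0.0493% of all genes, and Clock (0.39, limma adjusted p = 0.198) and Dbp (0.23, limma adjusted p = 0.194) had an unadjusted p under 0.05, beside 16.1% of all genes. The groups of that comparison share no array set. With array set as a block the differences were 0.10 for Clock (limma adjusted p = 0.972) and 0.12 for Dbp (limma adjusted p = 0.945). In these 4 comparisons the median size of the difference over the 10 genes was 0.10, 0.05, 0.08 and 0.14 on the log2 scale, beside 0.08, 0.07, 0.06 and 0.12 over all genes tested. In the 2 activation comparisons it was 0.18 and 0.17, beside 0.12 and 0.14. The plot of log2 differences shows all of them with their intervals.

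The relation between Arntl and its antiphase partners was examined over the 31 arrays, with 4 relations tested. Arntl and Dbp correlated at Pearson r = 0.095 (95% interval -0.27 to 0.43, permutation p = 0.612) and Spearman rho = 0.06 (permutation p = 0.727). For Per1 the values were r = -0.04 (permutation p = 0.833) and rho = 0.00 (permutation p = 0.996). Neither differs from 0 beyond its interval. For Per2 they were r = -0.23 (permutation p = 0.213) and rho = -0.15 (permutation p = 0.42), and for Per3 r = -0.32 (permutation p = 0.0768) and rho = -0.13 (permutation p = 0.473). In a limma fit of every gene on the Arntl level, 0 of the 4 partners were called, beside 0.123% of all genes (15). The adjusted limma p was 0.861 for Dbp, 0.943 for Per1, 0.59 for Per2 and 0.41 for Per3, no partner had an unadjusted p under 0.05, and 13.5% of all genes did. With array set as a block r was 0.42 for Dbp (limma adjusted p = 0.3), -0.05 for Per1 (0.933), -0.38 for Per2 (0.303) and -0.31 for Per3 (0.433). Here 0 of the 4 were called by limma, beside 0.37% of all genes, and Dbp and Per2, on opposite sides of 0, had an unadjusted limma p under 0.05, beside 14.3%. The permutation p of these r values within array sets was 0.0571 for Dbp and 0.0673 for Per2. Spearman's rho was 0.20 for Dbp (permutation p = 0.321) and -0.39 for Per2 (permutation p = 0.0418). The lower bounds of the r intervals, -0.27 for Dbp, -0.39 for Per1, -0.54 for Per2 and -0.61 for Per3, mark how strong an opposition the intervals still hold.

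The 2 arrays farthest from the median of Arntl were induced Treg replicate 5 (207) and activated T replicate 4 (206). Without them r was 0.09 for Dbp, -0.15 for Per1, -0.28 for Per2 and -0.30 for Per3. Inside array sets 1, 2 and 3 it was 0.19, 0.14 and 0.56 for Dbp and 0.41, -0.74 and -0.26 for Per1. For Per2 it was -0.36, 0.12 and -0.49, and for Per3 -0.35, -0.02 and -0.36. No permutation p of these r values was under 0.05, the lowest being 0.0886 for Dbp in set 3, and the sign of Per1 and Per2 changed between sets. The test was exact for set 2. The 4 panels of Arntl against its partners show these points.

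**Figure D4:**
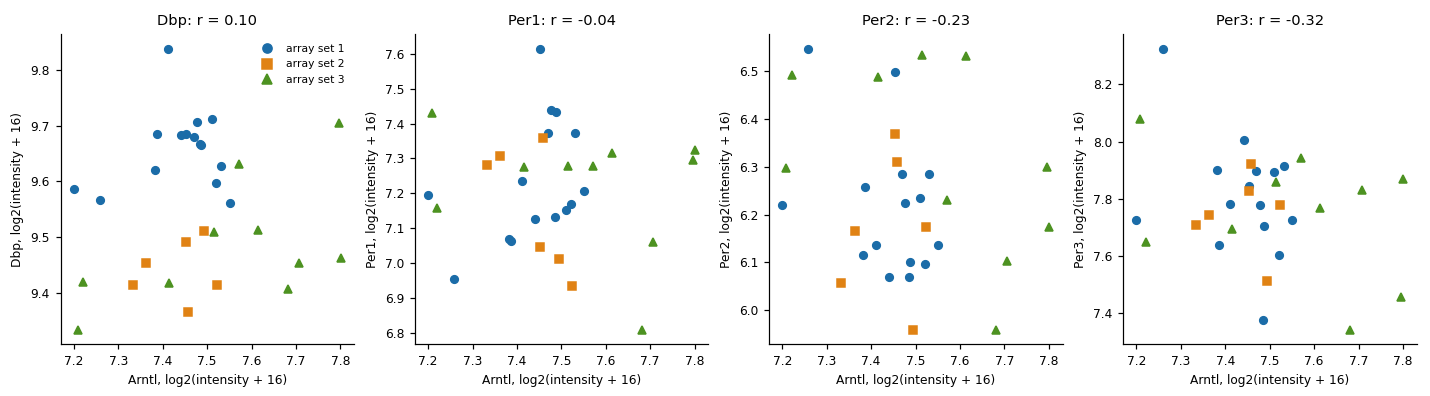
Arntl (x axis) against Dbp, Per1, Per2 and Per3 (y axes), all as log2(intensity + 16) on 31 arrays; colours and shapes give the array set. Pearson r is 0.095 for Dbp (printed to 2 decimals in the panel title), -0.04 for Per1, -0.23 for Per2 and -0.32 for Per3, and no panel shows a tight falling line.

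By label group the direction was mixed. In each group the array with the highest Arntl was set against the one with the lowest. In activated T, induced Treg, failed induced Treg and natural Foxp3-delta the arrays so compared come from different array sets. Dbp was lower on the Arntl-high array in 4 of 10 groups, Per1 in 6, Per2 in 4 and Per3 in 4. The widest of these opposed differences was that of Per3 in activated T, with Arntl at 206 and 159.8 and Per3 at 159.7 and 227. In natural Treg both moved the same way for Dbp, with Arntl at 154 and 131 and Dbp at 899 and 752. After label group means were removed, r was 0.33 for Dbp (limma adjusted p = 0.495), 0.03 for Per1 (0.967), 0.09 for Per2 (0.885) and -0.17 for Per3 (0.737).

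Across the 10 label group means, by contrast, the correlation with Arntl was -0.67 for Per2 and -0.62 for Per3, against 0.06 for Dbp and -0.14 for Per1. The permutation p over the 10 means was 0.0333 for Per2 (0.115 adjusted over the 4 relations) and 0.0576 for Per3 (0.115), and 0.882 for Dbp and 0.681 for Per1 (0.882 each when adjusted). Spearman's rho was -0.66 for Per2 (permutation p = 0.0436) and -0.56 for Per3 (permutation p = 0.0962). Of all genes, 0.657% (80 of 12169) had a group-mean correlation with Arntl at or below that of Per2, and 1.25% one at or below that of Per3. The group means share their array sets and hold 2 to 5 arrays each. Arntl was high in activated T, where Per2 averaged 56.3 ± 8.30 (SD, n = 4), and low in activated natural Treg, where Per2 averaged 71.0, and the ranges of these groups overlap in Per2.

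The sign also varied among probe sets. Of the 24 pairs of an Arntl probe set with a probe set of Dbp, Per1, Per2 or Per3, 9 had a correlation below 0, and the 24 ranged from -0.32 to 0.32. Most of these pairs hold a dim probe set. The second Arntl probe set, 1457740_at, and 4 of the 12 partner probe sets (2 of Per2 and 2 of Per3) were above the table's median on no array. In the 7 pairs whose probe sets were both above it on all 31 arrays, 3 correlations were below 0 and r ran from -0.32 to 0.13.

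Among all 45 pairs of the 10 genes, Pearson r over the 31 arrays ran from -0.37 (Nr1d1 and Cry1) to 0.53, with 24 pairs below 0. As a description, 4.44% of these pairs exceeded 0.5 in size, beside 7.24% of all pairs of tested genes. The 2 pairs over 0.5 were Dbp with Clock and Tef with Cry1, both at 0.53. Dbp and Clock went to -0.155 once array set means were removed and to -0.09 once label group means were removed. Tef and Cry1 kept 0.30 and 0.47. These 2 are genes with an E-box in the printed promoters, and the third such gene, Per1, correlated at -0.20 with Tef and -0.25 with Cry1. Per2 and Per3 correlated at 0.43 over the arrays, 0.47 within array sets and 0.45 within label groups, and Per1 at 0.33 with Per2. The D-box genes Per1 and Per3 correlated at 0.21. All these pairs share the arrays, and no test was made of them.

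**Figure D5:**
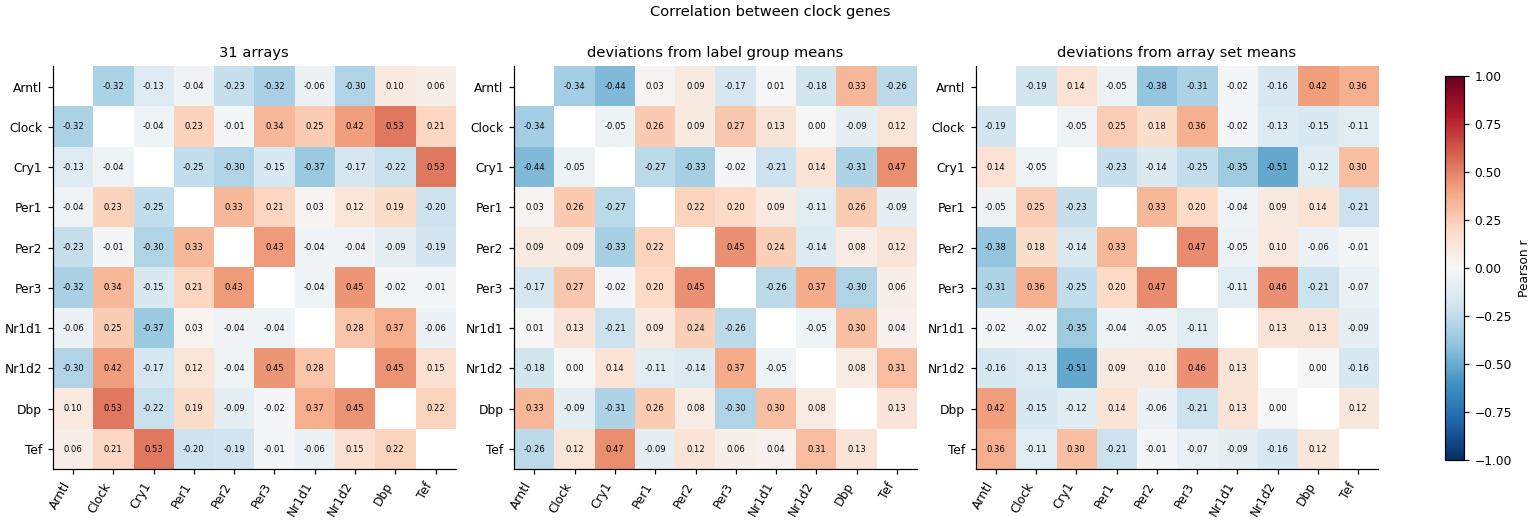
Pearson r between the 10 clock genes over 31 arrays (left), on deviations from label group means (centre) and on deviations from array set means (right), with red above 0, blue below 0 and the diagonal left blank. Dbp with Clock is 0.53 on the left and -0.09 and -0.155 in the other panels, and Per2 with Per3 is 0.43, 0.45 and 0.47.

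The genes whose pattern was most like that of Arntl were not clock genes. Symbols of unnamed gene models were left out of the extremes listed here. Over the 31 arrays the 5 highest correlations were with Polr2c (0.74), Rreb1 (0.72), Tagln2 (0.71), Dok3 (0.71) and Eif4ebp1 (0.69), and the 5 lowest with Nop9 (-0.74), Ddx58 (-0.69), Pdcd2l (-0.67), Klf2 (-0.66) and Adat2 (-0.65). The clock gene with the lowest was Per3, and Clock followed at -0.32. On deviations from label group means the extremes were Zfp637 (0.83) and Nop9 (-0.77). Dbp correlated most with Ankib1 (0.80), Stk17b (0.80), Plin2 (0.80), Cdk9 (0.80) and Gpbp1l1 (0.79), and most oppositely with Ap3d1 (-0.81), Atp5j2 (-0.80), Mprip (-0.78), Ube2h (-0.78) and Ids (-0.78). On deviations from label group means the Dbp extremes were Sec31a (0.74) and Plaat3 (-0.77).

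Other genes of the pathway were taken as a list of 22 co-factors, modifiers and outputs, of which 20 were tested. The F test over label groups called 3 of the 20 (Noct, adjusted p = 0.0276, limma; Btrc, 0.0305; Tipin, 0.0393), beside 13.6% of all genes. These 3 were not called with array set as a block (limma adjusted p = 0.392, 0.421 and 0.716), and 2 others were, Cipc (0.0372) and Rora (0.0465), beside 1.27% of all genes. In activated natural Treg minus natural Treg 8 of the 20 were called, 4 higher and 4 lower, beside 16.7% of all genes. Cry2, the second cryptochrome, rose by 0.64 (limma adjusted p = 0.0409), Usp2, a deubiquitinase of clock proteins, by 0.33 (0.0178), Cipc, an inhibitor of Clock, by 0.28 (0.0357), and Noct, a rhythmic phosphatase also called nocturnin, by 0.22 (0.0402). Btrc, the ubiquitin ligase subunit that marks Per proteins for decay, fell by 0.51 (limma adjusted p = 0.0362), Csnk1e, the kinase that phosphorylates them, by 0.36 (adjusted p rounding to 0.05), Tipin by 0.29 (0.0213) and its partner Timeless, a replication fork protein, by 0.19 (0.0229). In activated T minus conventional T, Tipin fell by 0.27 (limma adjusted p = 0.0478) and the other 19 were not called, beside 6.75% of all genes. Under an array-set block 1 of the 20 was called in each activation comparison, beside 0.362% and 0.0986% of all genes. These were Cipc in regulatory T cells (0.56, limma adjusted p = 0.0264) and Rora, a nuclear receptor that activates Arntl, in conventional T cells (0.62, limma adjusted p = 0.0344). Rora was not called there without the block. No array set holds both groups of either comparison, so these block values rest on set differences in other groups. In the other 7 comparisons and both interactions 0 of the 20 were called by limma, beside 0% to 2.15% of all genes. At an unadjusted p under 0.05 there were 0 to 6, beside 2.65% to 17.1% of all genes. The 6 were in IL-2 induced Foxp3-delta minus induced Foxp3-delta, where the share of all genes was 16.5%. The median difference of the list was 0.06 in the first and -0.06 in the second activation comparison, beside 0.00 and 0.01 over all genes.

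Per1 is also known as an immediate early and a glucocorticoid-responsive gene, and it was set beside those groups. Of 7 tested immediate early genes 0 were called by the F test (limma), beside 13.6% of all genes, and 3 had an unadjusted p under 0.05, beside 31.2%. Of 7 tested glucocorticoid-responsive genes 4 were called, Mt1 (adjusted p = 0.000505, limma), Sgk1 (0.0145), Zbtb16 (0.0208) and Cdkn1a (0.0361). Under an array-set block Mt1 was called (limma adjusted p = 0.00541) and the other 3 were not (0.251 for Sgk1, 0.0574 for Zbtb16 and 0.277 for Cdkn1a).

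In the activation of natural Treg, where 16.7% of all genes were called, Junb (-0.52, limma adjusted p = 0.0123) and Fos (-0.27, 0.0399) fell, and Dusp1 (0.44, 0.0325) rose. Junb averaged 35.9 over the arrays, under the table's median of 39.82. In activated T minus conventional T 6.75% of all genes were called. The 1 immediate early gene called there was Nr4a1, an orphan nuclear receptor, which rose by 0.29 (limma adjusted p = 0.0187). Of the glucocorticoid list, Sgk1, a kinase, fell by 0.65 (limma adjusted p = 0.00822) and Cdkn1a, the cell cycle inhibitor p21, rose by 0.34 (0.0356) in that comparison. In natural Treg Mt1, a metallothionein, fell by 0.42 (limma adjusted p = 0.00754) and Cdkn1a rose by 0.29 (0.0389). Under an array-set block Mt1 was called in natural Treg (-0.60, limma adjusted p = 0.0431), beside 0.362% of all genes. No other gene of these 2 lists was called in an activation comparison under the block, beside 0.0986% of all genes in conventional T. Mt1 also rose by 0.54 (limma adjusted p = 0.0376) in IL-2 induced Foxp3-delta minus induced Foxp3-delta, where 0.304% of all genes were called. With Per1 over the arrays the correlation was 0.21 for Junb, -0.04 for Fos, -0.16 for Dusp1, 0.12 for Sgk1 and 0.31 for Fkbp5, another glucocorticoid target.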

How the data were processed

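Total RNA of 31 samples was labelled with biotin and hybridised to 1 array each, per the labels' protocols. The authors deposited 1 value table of 45101 probe sets whose values are intensities on a linear scale. The probe summary, background correction and scaling are not given in the sources used here. Every column was used, with 0 left out.

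The intensities were quantile normalised and analysed as log2(intensity + 16). Through the platform annotation 34958 probe sets had 1 gene symbol, 932 had several and were not named, and 9211 had none listed. The probe set with the highest mean stood for a gene, and genes above the table's median (39.82) on at least 2 arrays were tested (12170 of 18194). A limma model (version 3.58.1, R 4.3.3) with 1 mean per label group took in every array and, through lmFit and eBayes, gave a moderated F over 10 groups, 9 contrasts and 2 interactions, with Benjamini-Hochberg adjustment over all genes tested and calls at 0.05. Relations with Arntl used a limma slope and permutation tests of 100000 resamples (Python 3.11.15, scipy 1.17.1). The fits were tested on simulated data. Array sets came from Ward clustering on the cre to bioB control ratio and the deposited median and 99th percentile. The number of arrays limits the precision.

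Alternatives were other scalings, pseudocounts and filters, the mean of all probe sets, blocks for array set, replicate number or label group, and leaving out arrays or sets. 1 test per probe set was added after the values were seen. The genes and lists were chosen with earlier results of these data known. Named are the 10 clock genes, members of the pathway, immediate early and glucocorticoid lists, and the 5 genes of highest and of lowest correlation with Arntl and with Dbp. Symbols of unnamed gene models were left out of these correlations.

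The replicate numbers in the labels were checked for pairing. Deviations from group means correlated with a median of 0.002 between arrays of the same number (114 pairs, 12 over 0.1) and -0.001 between arrays of different numbers (314 pairs, 31 over 0.1), so no pairing by number was seen. Many of these pairs lie in different array sets, so the check cannot exclude a pairing.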

Additional observations from a re-analysis of the deposited data

Results flagged for a closer look

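Over the 10 genes, 30 groups of 4 or 5 arrays were examined by Dixon's test. An array far from its companions was found in 2 of them, and chance flags about 1 in 20 groups. Arntl read 207.05 on induced Treg replicate 5, whose 4 companions read 159.3 to 164.2. That array is the 1 of its group in array set 3, and it is among the 2 arrays farthest from the median of Arntl. Tef read 1224.57 on natural Treg replicate 2, whose companions read 1142.9, 1148.6 and 1155.7, all in array set 1. Neither value carries a call.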

How the results depend on the processing

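The deposited intensities, left unscaled, shift all genes together. The median gene moved by -0.36 on the log2 scale in activated T minus conventional T, -0.53 in activated natural Treg minus natural Treg and 0.46 in induced Treg minus activated T. On these values 7 clock genes were called among label groups and 3, 7 and 9 in those comparisons, and Arntl correlated at 0.93 with Dbp, 0.77 with Per1, 0.64 with Per2 and 0.69 with Per3. The share of all genes called on these values is not given, so the counts are not a result about the clock genes. The same holds for the other settings of this section, except the array-set block and the test per probe set, whose shares are given above. Relative to the shift, Clock still differed by -0.52 and -0.45 with activation. With arrays scaled to a common median the median gene moved by 0.17 and 0.09 in the activation comparisons, and 2 and 0 clock genes were called in them. Dbp in activated T turned to 0.17, which is -0.0044 relative to the shift. Arntl correlated at 0.67 with Dbp (limma adjusted p = 0.0183) and 0.0274 with Per1.

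Array set as a block left 0 clock genes called among label groups and in both activation comparisons. The count among label groups was 0 without set 1, 1 without set 2 and 0 without set 3, and 1 with a pseudocount of 1 or with 1 test per probe set. In activated T minus conventional T it was 2 without set 2 and 0 without set 3, and IL-2 induced Treg minus induced Treg gave 1 without set 3. With the mean of all probe sets 1 clock gene was called in activated natural Treg minus natural Treg, where Dbp differed by -0.08 (limma adjusted p = 0.415). The Arntl and Per1 correlation turned to 0.0214 with that mean, 0.0299 with label group as a block, 0.0041 without set 2 and 0.16 without set 3. That of Per3 turned to 0.0448 with the mean of probe sets, and that of Per2 to 0.0873 with the group block. The causes were not tested.

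Leaving out 1 array at a time gave 1 to 3 clock genes among label groups (1 in 16 of the 31 cases), 0 to 2 in each activation comparison (2 in conventional T without activated T replicate 1 or 4), 0 to 1 in IL-2 induced Treg minus induced Treg (1 without induced Treg replicate 1) and 0 in the others. It gave correlations with Arntl of -0.0169 to 0.17 (Dbp), -0.12 to 0.0839 (Per1), -0.31 to -0.15 (Per2) and -0.39 to -0.22 (Per3). The replicate number as a block gave 3 clock genes among label groups in place of 2 and the same counts elsewhere, with 1 and 2 under activation. The filter and a pseudocount of 64 moved no count or sign.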
